A study of Mus musculus with 8 samples.

Results

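Mitosis and G2/M genes, 47 genes whose products carry a cell from the end of DNA synthesis through chromosome segregation and cytokinesis, were compared between MYC-positive and MYC-negative germinal centre (GC) B cells of the mouse. The members are a list of gene names, and no measured value enters the rule itself. The members, function groups and other lists were, however, chosen with earlier results of these data known. Each was read from the probe set whose only annotated gene was that member and whose mean log2 signal was highest. Of the 47 members, 46 had such a probe set, and all 46 passed the filter on low signals and were among the 11754 genes tested. Cyclin B1 (Ccnb1) was not analysed here, because no probe set carried its symbol alone.

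The arrays came from GFP-MYC knock-in mice (GFPMYC/C57BL6) that were 8 weeks old and had received sheep red blood cells 12 days before the spleens were taken. A B cell fraction was enriched with magnetic beads, and PNAhi/CD95hi cells, the surface phenotype of GC B cells, were sorted by their GFP fluorescence into 2 fractions, MYC-negative and MYC-positive. Both fractions carry the same fusion allele, so they differ by the level of the fusion protein at the sort and not by genotype. There were 4 arrays of each fraction, joined into 4 stated pairs. The sorting protocol describes the fractions as made for each mouse, whereas the design description speaks of pooled splenic cells, so the pairs may or may not be single animals. If they are not, the spread behind each p-value may be technical only. Amplified cDNA from 5 to 20 ng of total RNA was hybridised per array. With 4 pairs, the number of arrays limits the precision.

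Entry into mitosis is driven by cyclin-dependent kinase 1 (CDK1) with A- and B-type cyclins, and continues through Polo-like and Aurora kinases that build the spindle. Kinesins and kinetochore proteins then move the chromosomes, the spindle checkpoint holds back the anaphase promoting complex until all of them are attached, and condensin keeps them compact. Many of these genes are transcribed as a group late in the cell cycle through MuvB-based complexes such as DREAM and those with B-MYB and FOXM1, which act at the CHR promoter element, and through NF-Y, which binds CCAAT boxes. GC B cells alternate between a dark zone, where they divide, and a light zone, where they are selected, and MYC is found in a minority of them.

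Promoter sequences were compared because the members are known to be transcribed together. RefSeq promoters (GRCm38.p6, 250 bases before to 50 bases after the start, 300 bases in all) were matched by symbol for 38 of the 46 members, which had 40 promoters. Aurkb, Ccna2, Cdc25c, Dlgap5, Incenp, Kif20a, Smc4 and Tpx2 were not matched. The CHR core, TTTGAA, was present on either strand in 31 of the 40 (77.5%) and in 17.9% of all 32851 promoters of the same length. CCAAT was likewise in 31 of the 40 (77.5%), against 37.4% of all promoters. The canonical E-box CACGTG, the sequence that MYC with MAX is known to bind, was in 3 of the 40 (7.5%), against 7.15% of all. Ect2 and Prc1 each had 2 overlapping promoters, which were counted separately. Counted by gene, TTTGAA was in 29 of 38 members (76.3%, against 20.2% of 27025 genes) and CCAAT in 29 (76.3%, against 41.1%), while 25 had both (65.8%, against 8.97%). No match of 1 motif overlapped a match of another. The 250 bases before the start are printed for the 4 members that differed between the fractions (described next), on the strand of the gene, with matches to the 3 motifs in capitals.
Cenpe: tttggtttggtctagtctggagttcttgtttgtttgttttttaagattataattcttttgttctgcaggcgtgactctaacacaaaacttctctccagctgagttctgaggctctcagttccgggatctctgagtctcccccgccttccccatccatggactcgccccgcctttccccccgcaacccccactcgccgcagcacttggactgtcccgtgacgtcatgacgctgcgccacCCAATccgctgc
Kif11: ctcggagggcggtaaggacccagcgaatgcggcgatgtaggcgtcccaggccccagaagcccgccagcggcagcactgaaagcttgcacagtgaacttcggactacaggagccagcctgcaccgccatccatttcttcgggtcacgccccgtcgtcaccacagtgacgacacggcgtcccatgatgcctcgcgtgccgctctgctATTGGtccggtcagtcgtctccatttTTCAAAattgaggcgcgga
Kif23: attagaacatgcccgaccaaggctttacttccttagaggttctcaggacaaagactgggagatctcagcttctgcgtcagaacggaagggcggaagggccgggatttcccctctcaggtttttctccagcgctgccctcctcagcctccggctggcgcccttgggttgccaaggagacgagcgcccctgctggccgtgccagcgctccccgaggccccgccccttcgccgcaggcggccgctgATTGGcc
Ncapd2: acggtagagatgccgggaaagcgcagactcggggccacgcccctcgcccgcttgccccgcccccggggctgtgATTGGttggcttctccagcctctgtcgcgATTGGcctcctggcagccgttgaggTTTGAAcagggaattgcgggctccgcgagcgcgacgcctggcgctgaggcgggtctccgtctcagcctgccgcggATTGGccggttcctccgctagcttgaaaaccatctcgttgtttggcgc
Upstream of the gene start, the stretch of Cenpe is chr3:135212313-135212562 on the plus strand and Kif11 at chr19:37376132-37376381 on the plus strand. That of Kif23 is chr9:61946800-61947049 and Ncapd2 at chr6:125191587-125191836, both on the minus strand. Each of these 4 had a CCAAT box (ATTGG where it lies on the other strand), at 12 bases before the start in Cenpe, 45 in Kif11, 7 in Kif23 and 48, 148 and 177 in Ncapd2. TTTGAA began 19 bases before the start in Kif11, where it reads TTCAAA, and 123 before in Ncapd2. The match in Kif23 began 2 bases after the start, outside the printed stretch, and none was in the 300-base window of Cenpe. None of the 4 windows held CACGTG. These are matches of letters, not measured binding sites.

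As a check of the sort labels, the Myc signal was 33.3, 156, 105 and 137 on the MYC-negative arrays of pairs 1 to 4 and 361, 932, 644 and 891 on the MYC-positive arrays. The groups did not overlap, and the log2 difference was 2.83 ± 0.28 (SE, n = 4 pairs; limma, adjusted p = 0.00069). Of 8 measured B cell markers 3 fell (37.5%), namely Cd22, Cr2 and Pax5, and 0 rose. All 8 were below 0, with a median of -0.42. After quantile normalization 8 were called lower (against 11.3% of all genes) and after median centring 2 (against 4.65%). Of 7 measured GC B cell markers 2 fell (28.6%), Fas and Mybl1, and 0 rose. Across all genes tested, 11.5% fell and 11.2% rose. The summed signal of the B cell markers was 51275 to 60843 in the MYC-negative and 40379.7 to 48787 in the MYC-positive arrays, and that of the GC B cell markers 28101 to 40135 and 22297 to 28071. Of 16 myeloid markers, 12 were measured and 6 of these rose (Lyz2, Csf1r, C1qa, C1qb, C1qc and Vcam1) while 1, Apoe, fell, with summed signals of 1035 to 2241 and 1782 to 9426. Of 11 T cell markers, 4 were measured, Thy1 higher and Cd2 lower, while Cd3e, Cd3d, Cd3g and Cd4 were under the filter, with summed signals of 3865 to 5437 and 1979 to 3734, and no erythroid marker of 6 passed it. Among 5 measured plasma cell markers 1, Sdc1, rose and 0 fell, with summed signals of 14659 to 26840.3 and 15916 to 23129. The 3'/5' signal ratio of Gapdh, a measure of RNA integrity, was 1.39 to 1.57 in the MYC-negative and 1.35 to 1.47 in the MYC-positive arrays, and that of b-Actin 1.43 to 2.24 and 1.81 to 2.24. The part of these shifts in the results on mitotic genes was not tested. In such bulk samples, fewer cells in mitosis and less mRNA per cell cannot be told apart.

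Few mitosis and G2/M genes differed between the fractions, and with the signals scaled as deposited those that did were lower in MYC-positive cells. Of the 46 members, 4 fell and 0 rose at an adjusted p under 0.05 (limma, paired, Benjamini-Hochberg over all genes). These 4 were Cenpe, Kif11, Kif23 and Ncapd2, which encode 3 motor proteins of the spindle and a condensin subunit. Across all genes tested, 11.5% fell and 11.2% rose, so the 8.70% of members that fell is near the background, whereas no member was among the genes that rose. At an unadjusted p under 0.05, 11 members were lower (23.9%, against 19.2% of all genes), and 1, Cdk1, was higher (2.17%, against 17.0%). The calls turned with the scaling, from 4 lower and 0 higher to 0 lower and 8 higher after each array was centred on its median, as described after the single genes. Leaving out pair 1 or pair 2 gave 0 members lower, against 2.99% and 3.62% of all genes. Leaving out pair 3 gave 2 (Cenpe and Kif15, 4.35%, against 8.48%). Leaving out pair 4 gave 7 lower (Cenpe, Cenpf, Kif11, Kif23, Kif4, Ncapd2 and Spag5, 15.2%, against 17.3%) and 1 higher (Mad2l1, 2.17%, against 14.8%). Without the pair as a block 0 were called, against 7.67% of all genes lower and 8.98% higher. Without the intensity trend of the variance 0 were called (against 6.56% lower and 6.26% higher). With no filter on low signals 2, Cenpe and Kif23, were lower (4.35%, against 6.33%).

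The direction in the single pairs was similar. In all 4 pairs, 14 members were lower (30.4%, against 23.0% of all genes) and 2, Ccna2 and Cdk1, were higher (4.35%, against 19.3%). The signals of 7 members on the MYC-positive arrays all lay below those on the MYC-negative arrays (15.2%, against 10.9%), and no member lay wholly above (background 11.1%). The median log2 difference of the members was -0.11, with 16 above 0 and 30 below, beside -0.06 for all genes. By pair, the members' median was -0.03, -0.14, -0.20 and -0.27, and that of all genes was 0.03, -0.06, -0.20 and 0.0035. The members' median lay below that of all genes in each pair, by least in pair 3. The highest member difference was 0.53, for Aurka, and the lowest -2.07, for Kif15.

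**Figure D1:**
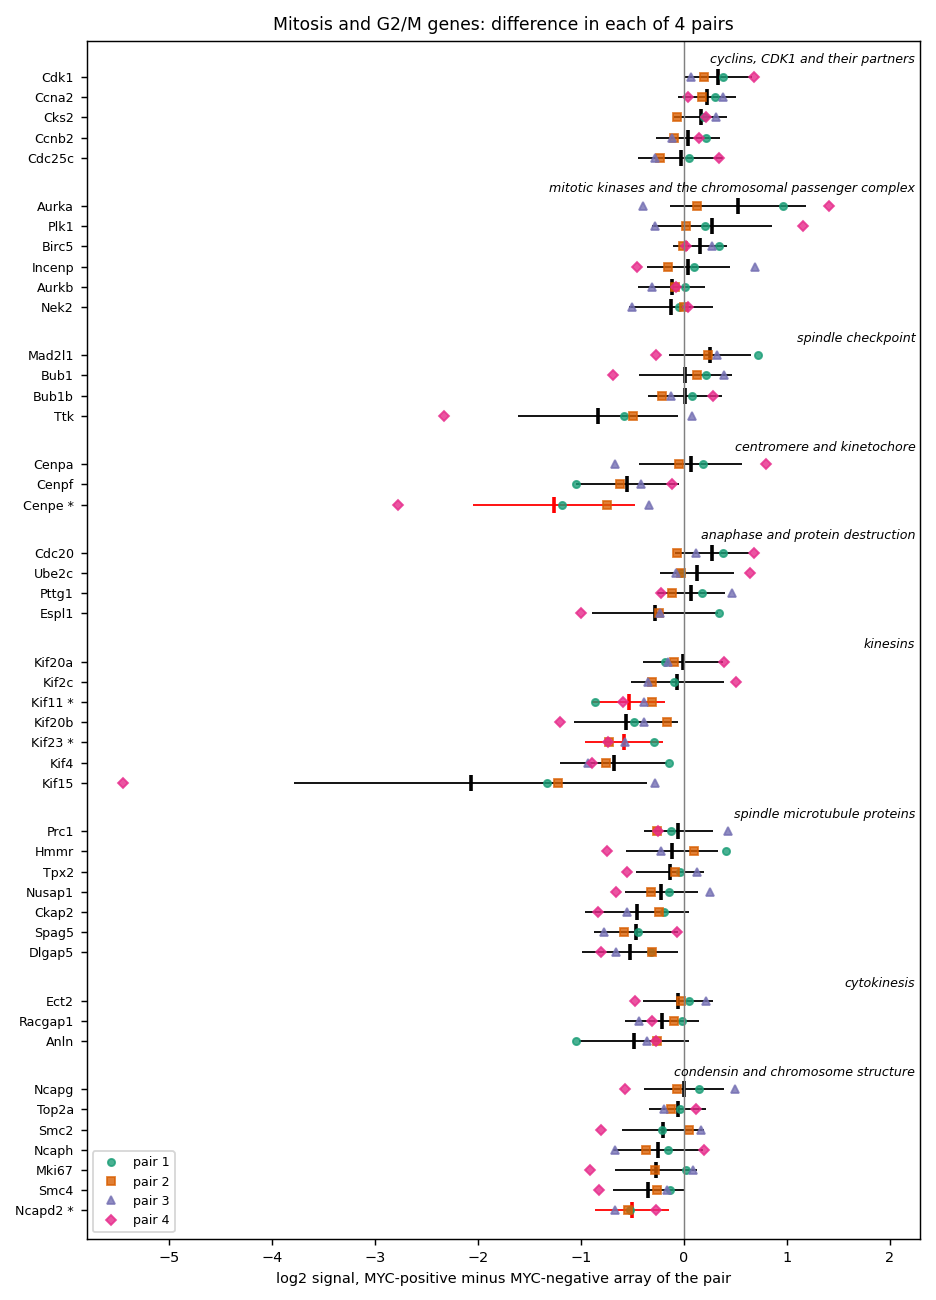
Log2 difference, MYC-positive minus MYC-negative, of the 46 members in each of the 4 pairs (coloured symbols), with the mean (tick) and its 95% confidence interval (line), by function. The 4 members marked with an asterisk and drawn in red had an adjusted p under 0.05. All 7 kinesins have means below 0 with the signals as deposited (5 of 7 after median centring), while the kinases have means on both sides of 0.

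Cyclins, CDK1 and their partners, which start mitosis, had a median difference of 0.17 over 5 members, and none passed the test. The median was 0.019 after quantile normalization, with none called, and 0.61 after median centring, with 3 called higher. Cdk1, the kinase itself, gave signals of 3576, 3960.0, 3515 and 4451 on the MYC-negative arrays of pairs 1 to 4 and 4665, 4546, 3699 and 7135 on the MYC-positive arrays. The MYC-positive array was the higher of each pair, by most in pair 4, yet the groups overlapped. Its difference was 0.33 ± 0.15 (SE, n = 4 pairs; adjusted p = 0.13; 95% interval 0.0034 to 0.67). Ccna2, cyclin A2, was also higher in every pair, at 0.23 ± 0.12 (adjusted p = 0.22), and ran from 5729 to 8346. Cks2, a small CDK-binding subunit, differed by 0.17 and Ccnb2, cyclin B2, by 0.041. Cdc25c, the phosphatase that activates CDK1, had the lowest value of the group. Its signals were 1533, 1504, 1159 and 775 in the MYC-negative arrays and 1588, 1285, 955 and 981 in the MYC-positive arrays, with overlapping groups and a difference of -0.029 ± 0.18 (adjusted p = 0.93; interval -0.44 to 0.39). Pairs 1 and 4 were higher and pairs 2 and 3 lower for Cdc25c.

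The mitotic kinases and the chromosomal passenger complex had a median of 0.10 over 6 members, -0.044 after quantile normalization, and none passed the test. Aurka, the kinase of spindle poles, had the highest difference of the members on its brightest probe set but varied in sign between pairs. It gave 937, 1035, 682 and 504 in the MYC-negative and 1830.0, 1132, 519 and 1337 in the MYC-positive arrays. Pairs 1 and 4 were 0.97 and 1.41 log2 units higher, pair 2 was close to equal and pair 3 was lower, and the difference of 0.53 ± 0.29 did not pass (adjusted p = 0.23; interval -0.14 to 1.19). Plk1, Polo-like kinase 1, which promotes entry and centrosome maturation, gave 1011, 881, 597 and 439.6 in the MYC-negative and 1169, 892, 491 and 984 in the MYC-positive arrays. The MYC-negative signal of pair 4 was the lowest of all 8 and the groups overlapped. It differed by 0.28 ± 0.26 (adjusted p = 0.48; interval -0.31 to 0.86), and by -0.018 without pair 4. Nek2, a kinase of centrosome separation, gave 1347, 1130.1, 1452 and 1144 in the MYC-negative and 1306, 1131, 1028 and 1181 in the MYC-positive arrays. The groups overlapped, pair 3 was lower and the other pairs were nearly equal, at -0.12 ± 0.18 (adjusted p = 0.66; interval -0.53 to 0.28). The passenger complex corrects faulty attachments. On the brightest probe sets its members were close to 0, with the kinase Aurkb at -0.11, the scaffold Incenp at 0.047 and survivin, Birc5, at 0.16. The other probe sets of Incenp, 4.0 to 6.8 log2 units dimmer, were lower, at -0.28, -1.14 and -0.18.

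Of the 4 spindle checkpoint members, none passed the test, and the median was 0.013. Mad2l1, MAD2, which inhibits the anaphase promoting complex, gave 2463, 2810.4, 3212 and 5069 in the MYC-negative and 4055, 3317, 4033 and 4196 in the MYC-positive arrays. It was higher in pairs 1 to 3 and lower in pair 4, at 0.25 ± 0.18 (adjusted p = 0.34; interval -0.14 to 0.65). Ttk, the MPS1 kinase that starts checkpoint signalling, gave 1674, 1276, 1556 and 2053 in the MYC-negative and 1121, 906, 1645 and 409.8 in the MYC-positive arrays. The MYC-positive array of pair 4 was the lowest and pair 3 showed no fall, and the difference of -0.83 ± 0.34 did not pass after adjustment (adjusted p = 0.12). Another Ttk probe set, 0.34 log2 units dimmer, differed by only -0.11. In pair 4 it gave 1090 in the MYC-negative and 746 in the MYC-positive array. Without pair 4, Mad2l1 was higher at 0.43 (adjusted p = 0.039) and Ttk stood at -0.33. The checkpoint kinase Bub1 differed by 0.016 and its partner Bub1b, BUBR1, by 0.011.

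Among 3 centromere and kinetochore members, Cenpe fell. CENP-E is the kinesin that draws chromosomes from the poles to the spindle equator. Its signals were 2523, 2323, 1581 and 1645 in the MYC-negative and 1114, 1388, 1253 and 241 in the MYC-positive arrays. Every MYC-positive signal was below every MYC-negative signal, and pair 4 was much the lowest. The difference was -1.26 ± 0.35 (SE, n = 4 pairs; adjusted p = 0.032; interval -2.05 to -0.47), and without pair 4 it was -0.75 (adjusted p = 0.0046). Cenpf, a large kinetochore protein, was lower in all 4 pairs at -0.55 ± 0.22 but did not pass (adjusted p = 0.11). Cenpa, the centromeric histone H3 variant, gave 2983, 2857, 2846 and 2845 in the MYC-negative and 3396, 2769, 1791 and 4959.8 in the MYC-positive arrays. The 4 MYC-negative signals lay close together while the MYC-positive ones spread to both sides of them, and the difference was 0.069 ± 0.22 (adjusted p = 0.86; interval -0.43 to 0.57).

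The 4 members that act at anaphase had a median of 0.10, which was -0.0025 after quantile normalization, and none passed the test. Cdc20, the activator of the anaphase promoting complex, gave 3123, 3913, 3125 and 3472 in the MYC-negative and 4059, 3744, 3388 and 5579 in the MYC-positive arrays. Pairs 1 and 4 were higher by most and the groups overlapped, with a difference of 0.28 ± 0.16 (adjusted p = 0.24; interval -0.081 to 0.64). Espl1, separase, the protease that opens cohesin, gave 561, 592, 387 and 288 in the MYC-negative and 712, 501, 331 and 144 in the MYC-positive arrays. It was higher in pair 1, lower in the other pairs and lowest in pair 4, at -0.28 ± 0.27 (adjusted p = 0.51; interval -0.89 to 0.34). Ube2c, the ubiquitin-conjugating enzyme of the complex, differed by 0.13, and Pttg1, securin, the inhibitor of separase, by 0.075.

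Kinesins had a median of -0.56 over 7 members, of which all 7 were below 0 as deposited, 6 after quantile normalization and 5 after median centring. The median was -0.49 with 2 called after quantile normalization and -0.12 with 0 called after median centring. As deposited, 2 kinesins fell (28.6%, against 11.5% of all genes), and 5 were lower in all 4 pairs (71.4%, against 23.0%). Kif11, also known as Eg5, slides spindle poles apart and gave 3241, 3357, 2963 and 2771 in the MYC-negative and 1784, 2712, 2274 and 1842 in the MYC-positive arrays. The groups did not overlap, and the difference was -0.53 ± 0.16 (SE, n = 4 pairs; adjusted p = 0.038; interval -0.89 to -0.18). Kif23, MKLP1, bundles the central spindle for cytokinesis and gave 1924, 2128, 1520.5 and 1660.3 in the MYC-negative and 1577, 1286, 1025 and 997 in the MYC-positive arrays. Pair 1 of the MYC-positive arrays reached the range of the MYC-negative ones, but each pair was lower, at -0.58 ± 0.17 (adjusted p = 0.036; interval -0.96 to -0.20).

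Kif15, a motor that backs up Kif11, gave low signals, 198, 90.7, 91.2 and 136 in the MYC-negative and 79.0, 38.8, 75.0 and 3.13 in the MYC-positive arrays. The last of these lies below the filter level of 18.7. The groups did not overlap, and its difference of -2.07 ± 0.76 did not pass (adjusted p = 0.082). With signals below 16 set to 16 it was -1.48 (adjusted p = 0.039), and without pair 3 it was -2.66 (adjusted p = 0.047). Pair 4 carried most of it, and without that pair it was -0.94 (adjusted p = 0.089). Kif4, a motor on chromosome arms, differed by -0.68 ± 0.23 (adjusted p = 0.063) and Kif20b, which acts in cytokinesis, by -0.56 ± 0.22 (adjusted p = 0.10), both lower in all 4 pairs. Kif20a, MKLP2, and the microtubule depolymerase Kif2c were near 0, at -0.0074 and -0.060, each higher in pair 4 alone. The signals on each array are shown for the 4 members that fell and for 5 of the best known members that did not.

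**Figure D2:**
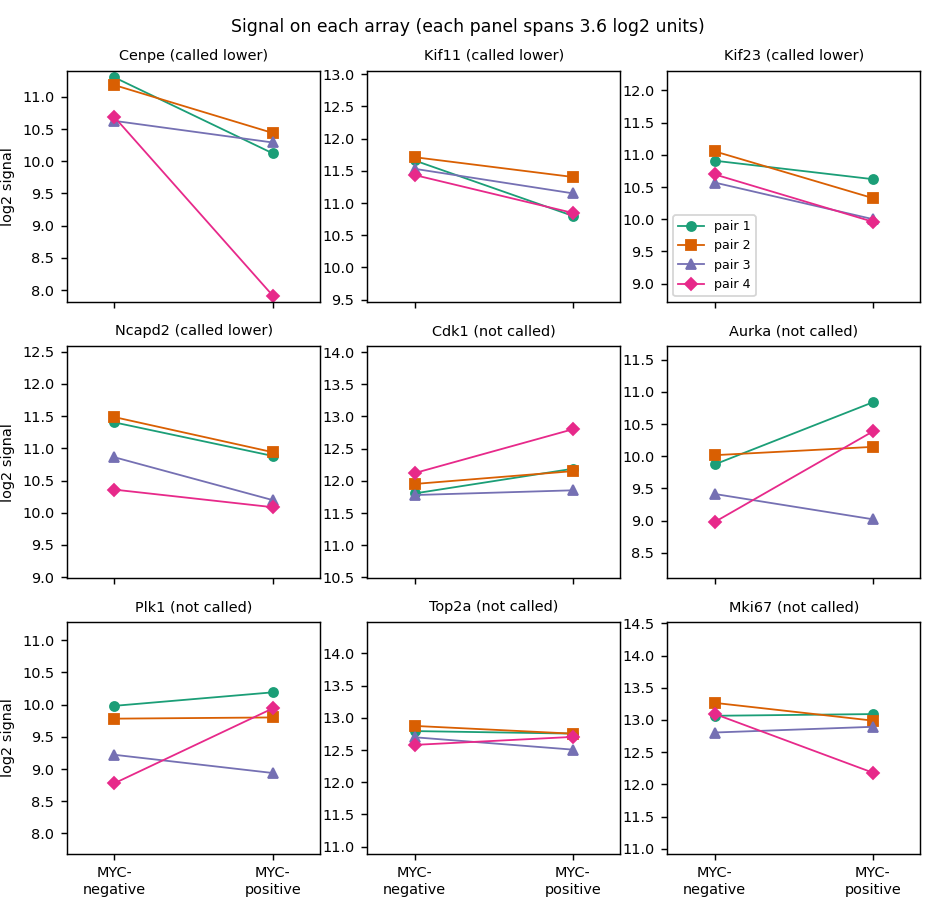
Log2 signal on each of the 8 arrays for 9 members, each line joining the MYC-negative and MYC-positive array of 1 pair, with the same span of 3.6 log2 units in every panel. All 4 lines fall for Cenpe, Kif11, Kif23 and Ncapd2, by most for Cenpe in pair 4. Lines for Aurka and Plk1 cross, with pair 4 rising and pair 3 falling.

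The 7 spindle microtubule proteins had a median of -0.22, 0.22 after median centring, and none passed the test. All 7 were below 0 as deposited and 3 after median centring. Dlgap5, HURP, which stabilises kinetochore fibres, gave 833, 674, 796 and 669 in the MYC-negative and 668, 545, 505 and 384 in the MYC-positive arrays. The groups were close but did not overlap, at -0.52 ± 0.21 (adjusted p = 0.11, interval -0.99 to -0.050). Another Dlgap5 probe set, 1.60 log2 units dimmer, differed by -0.031, with overlapping groups. Spag5, astrin, and Ckap2, both of them spindle-associated, were lower in all 4 pairs, at -0.47 and -0.45. Nusap1 at -0.22, Tpx2, the activator of Aurora A, at -0.13, Hmmr at -0.11 and the microtubule bundler Prc1 at -0.050 varied in sign between pairs.

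Cytokinesis members had a median of -0.21 over 3 genes, 0.23 after median centring, and none passed. Anln, anillin, a scaffold of the contractile ring, gave 666, 569, 578 and 523 in the MYC-negative and 323, 474, 452 and 434 in the MYC-positive arrays. The groups did not overlap, with pair 1 the furthest apart, at -0.48 ± 0.23 (adjusted p = 0.18; interval -1.01 to 0.049). Racgap1, a subunit of centralspindlin together with Kif23, was lower in all 4 pairs at -0.21, and Ect2, the RhoA activator it recruits, differed by -0.056.

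Condensin and chromosome structure members had a median of -0.25 over 7 genes, 0.19 after median centring, and 1 fell (14.3%, against 11.5% of all genes). Ncapd2, a HEAT-repeat subunit of condensin I, gave 2707, 2866, 1860.0 and 1313 in the MYC-negative and 1887, 1965, 1173 and 1087 in the MYC-positive arrays. The groups overlapped across pairs, but the MYC-positive array was lower in each pair, at -0.50 ± 0.16 (SE, n = 4 pairs; adjusted p = 0.049; interval -0.86 to -0.15). Without the pair as a block its adjusted p was 0.27. Ncapg, another condensin I subunit, had the highest value of the group and gave 6255, 6973, 6066 and 12187 in the MYC-negative and 6951, 6657, 8582 and 8228 in the MYC-positive arrays. The MYC-negative array of pair 4 stood high, and the difference was 0.0047 ± 0.17 (adjusted p = 0.99; interval -0.38 to 0.39).

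The remaining condensin subunits differed by -0.25 for Ncaph, -0.20 for Smc2 and -0.34 for Smc4. Smc4 was lower in all 4 pairs without overlap (adjusted p = 0.14). Top2a, topoisomerase II alpha, which untangles chromosomes, gave 7108, 7515, 6650.3 and 6126 in the MYC-negative and 6916, 6913, 5821 and 6676 in the MYC-positive arrays. Its signals were nearly level, with a difference of -0.057 ± 0.12 (adjusted p = 0.78; interval -0.33 to 0.22). Other Top2a probe sets, 5.46 and 8.41 log2 units dimmer, were lower, at -1.14 and -0.84. Mki67, the proliferation marker that coats mitotic chromosomes, gave 8569, 9849, 7157 and 8743 in the MYC-negative and 8728, 8134, 7610.1 and 4644 in the MYC-positive arrays. Pair 4 held the 1 low signal, and the difference was -0.27 ± 0.17 (adjusted p = 0.31; interval -0.66 to 0.13).

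Genes of the same pathways outside the member list were called in both directions. Of 116 other G2/M genes listed, 114 were tested, and 8 fell (7.02%, against 11.5% of all genes) and 5 rose (4.39%, against 11.2%), with a median of -0.055. After median centring these counts turned to 1 lower (Cenpt) and 38 higher, while 4.65% of all genes were lower and 27.3% higher. The 5 that rose were Nek6, Trip13, Cenpw, Cdc25a and Zwint. Nek6, a kinase of spindle formation, gave 191, 84.7, 91.8 and 56.0 in the MYC-negative and 414, 363, 203 and 176 in the MYC-positive arrays, higher in every pair, at 1.50 ± 0.31 (adjusted p = 0.011). Trip13, the ATPase that takes checkpoint complexes apart, was higher by 1.10 ± 0.20 (adjusted p = 0.0071), and the inner kinetochore gene Cenpw by 1.00 ± 0.24 (adjusted p = 0.019). Cdc25a, a CDK-activating phosphatase that acts from the G1/S transition on, was higher by 0.84 ± 0.19 (adjusted p = 0.016). Zwint, a kinetochore adaptor, was higher by 0.80 ± 0.16 (adjusted p = 0.0088). No group overlap was seen for these except Nek6. With the mean over probe sets 4 of these 5 did not pass, at 0.24 for Trip13 (adjusted p = 0.69), 0.13 for Cdc25a (adjusted p = 0.63), 0.85 for Nek6 (adjusted p = 0.10) and 0.54 for Zwint (adjusted p = 0.12).

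Among those that fell, Cenpt, an inner kinetochore protein, had the largest difference, -1.50 ± 0.20 (adjusted p = 0.0019), with signals of 1855, 1266, 1428 and 954 in the MYC-negative and 557, 576, 442 and 353 in the MYC-positive arrays, which did not overlap. Cenpj, which builds centrioles, differed by -1.02 ± 0.22 (adjusted p = 0.012), and Ncaph2, of condensin II, by -0.90 ± 0.19 (adjusted p = 0.012), but with the mean over probe sets Ncaph2 was -0.036 (adjusted p = 0.92). Ndc80, the kinetochore's microtubule coupler, differed by -0.71 ± 0.20 (adjusted p = 0.035). Of 13 cohesin genes 3 fell (23.1%, against 11.5% of all genes). These were the shugoshin Sgo2a at -0.63 ± 0.18 (adjusted p = 0.035), the cohesin loader Nipbl at -0.997 ± 0.25 (adjusted p = 0.023) and the acetyltransferase Esco2 at -0.80 ± 0.19 (adjusted p = 0.017). With the mean over probe sets Esco2 was -0.45 (adjusted p = 0.062). The cohesin median was -0.44, with 11 of 13 below 0, and 0.0043 after median centring. Of 15 genes of the anaphase promoting complex none passed, 12 were above 0 and the median was 0.17, with 2 higher (13.3%, against 17.0% of all genes) and 0 lower at an unadjusted p under 0.05. Quantile normalization gave 2 of these 15 higher (median 0.22) and median centring 10 (median 0.61), with 0 lower. Of all genes, 15.2% were higher after quantile normalization and 27.3% after median centring. Of 27 spindle and centrosome genes 2 fell (7.41%, against 11.5% of all genes), Cenpj and Stil at -0.69 ± 0.18 (adjusted p = 0.025), both of centriole assembly. Of the 27, 23 were below 0, with a median of -0.31 that was 0.13 after median centring.

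Foxm1 and Mybl2 encode the transcription factors FOXM1 and B-MYB and were named after their values had been seen. Foxm1 gave 584, 506, 383 and 307 in the MYC-negative and 421, 378, 191 and 168 in the MYC-positive arrays. It was lower in all 4 pairs but did not pass, at -0.69 ± 0.25 (adjusted p = 0.075). Mybl2 gave 579, 478, 521 and 250.5 in the MYC-negative and 1075, 1071, 503 and 1419.9 in the MYC-positive arrays. It was higher in 3 of 4 pairs and slightly lower in pair 3, at 1.13 ± 0.36 (adjusted p = 0.053), and without pair 3 it was 1.52 (adjusted p = 0.016).

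Genes of DNA replication, the phase before G2, were set beside the members. Of 40 listed, 38 were tested, and 8 rose (21.1%, against 11.2% of all genes) and 0 fell (against 11.5%). At an unadjusted p under 0.05, 18 were higher (47.4%, against 17.0%) and 0 lower (against 19.2%). Their median difference was 0.29, with 36 of 38 above 0. Pold2, a subunit of DNA polymerase delta, rose by 1.31 ± 0.24 (adjusted p = 0.0066) and Rpa2, of the single-strand binding protein RPA, by 0.80 ± 0.14 (adjusted p = 0.0049), both in all 4 pairs. By pair the replication median was 0.48, 0.25, 0.34 and 0.33, above the members' median in each. Without pair 1 the count of 8 became 0 of 38 (against 3.43% of all genes higher), and without pair 2 it became 2 (against 3.87%). It was 7 without pair 3 (against 10.1%) and 12 without pair 4 (against 14.8%). The difference between the lists was not tested.

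**Figure D3:**
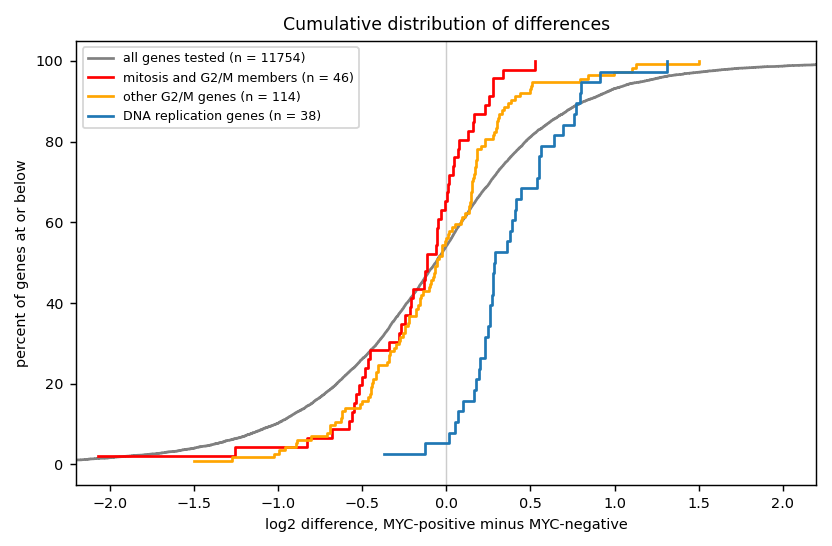
Percent of genes at or below each log2 difference, MYC-positive minus MYC-negative, for the 46 members, 114 other G2/M genes, 38 DNA replication genes and all 11754 genes tested. The member curve reaches its top at 0.53, while all genes extend beyond 2, and the replication curve lies to the right, with 36 of 38 genes above 0.

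Most other probe sets of the same members were below 0 as well. The members had 107 probe sets, 102 of them above the filter. Of the 56 besides those chosen, from 33 members, 48 (85.7%) were below 0, with a median of -0.35, beside 65.2% of the members. Of the 10270 other probe sets of all genes tested, 64.0% were below 0, with a median of -0.27, beside 54.1% of the genes. All 6 other probe sets of Cenpe, Kif11, Kif23 and Ncapd2 were below 0, at -1.21 for Cenpe and -0.49 and -0.30 for Kif11. For members below 0, 38 of 40 other probe sets were below 0 too, whereas for the 10 members above 0 that had any, 6 of 16 were above 0. These 6 were 0.11 to 1.26 log2 units dimmer than the brightest probe set of their gene. They stood at 0.48 for Ccna2, 0.35 and 0.40 for Cdc20, 0.18 for Cks2, 0.091 for Bub1b and 0.062 for Pttg1. The rest of the 16 were 1.99 to 6.82 log2 units dimmer. Cenpa was 0.07 on its brightest probe set and -1.79 and -0.66 on the others, which were 3.04 and 3.21 log2 units dimmer. Incenp was 0.047 against -0.28, -1.14 and -0.18. Aurka was 0.53 and -0.21, but its second probe set was dim, with signals of 38.6 to 70.0 beside the filter level of 18.7. The direction of Cenpa, Incenp and Aurka thus differed between the brightest and the dimmer probe sets. Averaging all probe sets of a gene gave 5 members lower, Cenpa, Cenpe, Kif4, Ncapd2 and Nusap1 (10.9%, against 13.5% of all genes). No member was higher (0%, against 9.93%).

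**Figure D4:**
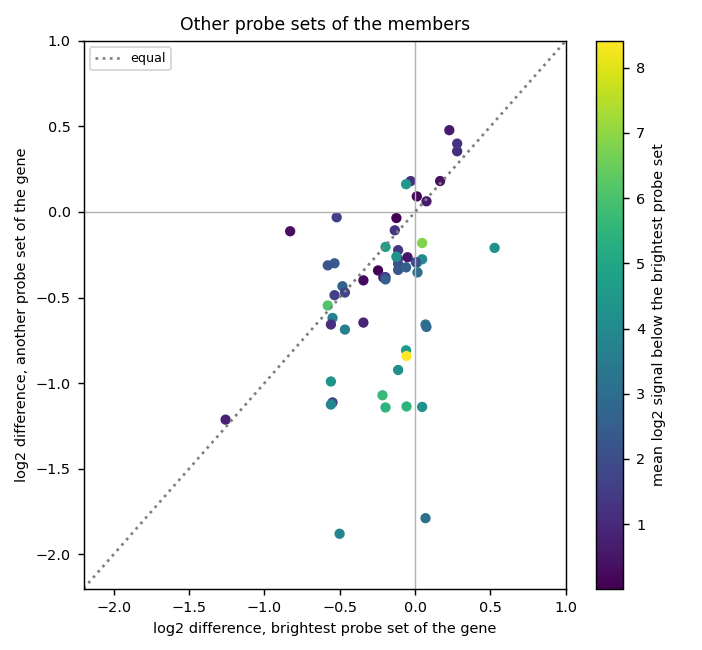
Log2 difference, MYC-positive minus MYC-negative, of each of 56 other probe sets (vertical) against that of the brightest probe set of the same member (horizontal), coloured by how much dimmer it was in mean log2 signal. Of the 56 points 48 lie below 0, and the dotted line marks equal values.

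The level given to a gene's difference depends on how arrays are scaled. The deposited signals share a trimmed mean of 497 to 498 on every array, but the median log2 signal of all probe sets was 5.37 to 5.80 in the MYC-negative and 4.82 to 5.31 in the MYC-positive arrays. Setting these medians equal moved the median difference of all genes from -0.06 to 0.38, and quantile normalization moved it to 0.09. After median centring 0 members fell and 8 rose (17.4%, against 27.3% of all genes), namely Aurka, Birc5, Ccna2, Cdc20, Cdk1, Cks2, Mad2l1 and Ube2c. After quantile normalization 7 fell (15.2%, against 11.3%) and 0 rose (against 15.2%), adding Mki67, Nusap1 and Smc4 to the 4. The share of higher among all genes called went from 49.4% with the deposited scaling to 57.2% with quantile normalization and 85.4% with median centring. Relative to the median of all genes, the members' median was -0.05 as deposited and -0.24 after quantile normalization. That of the kinesins was -0.50 and -0.58, that of DNA replication 0.35 and 0.20, and that of the B cell markers -0.36 and -0.66. Median centring shifts all genes of an array alike, so it leaves these relative values as they were by construction. The sign against 0 of 17 members turned with median centring.

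**Figure D5:**
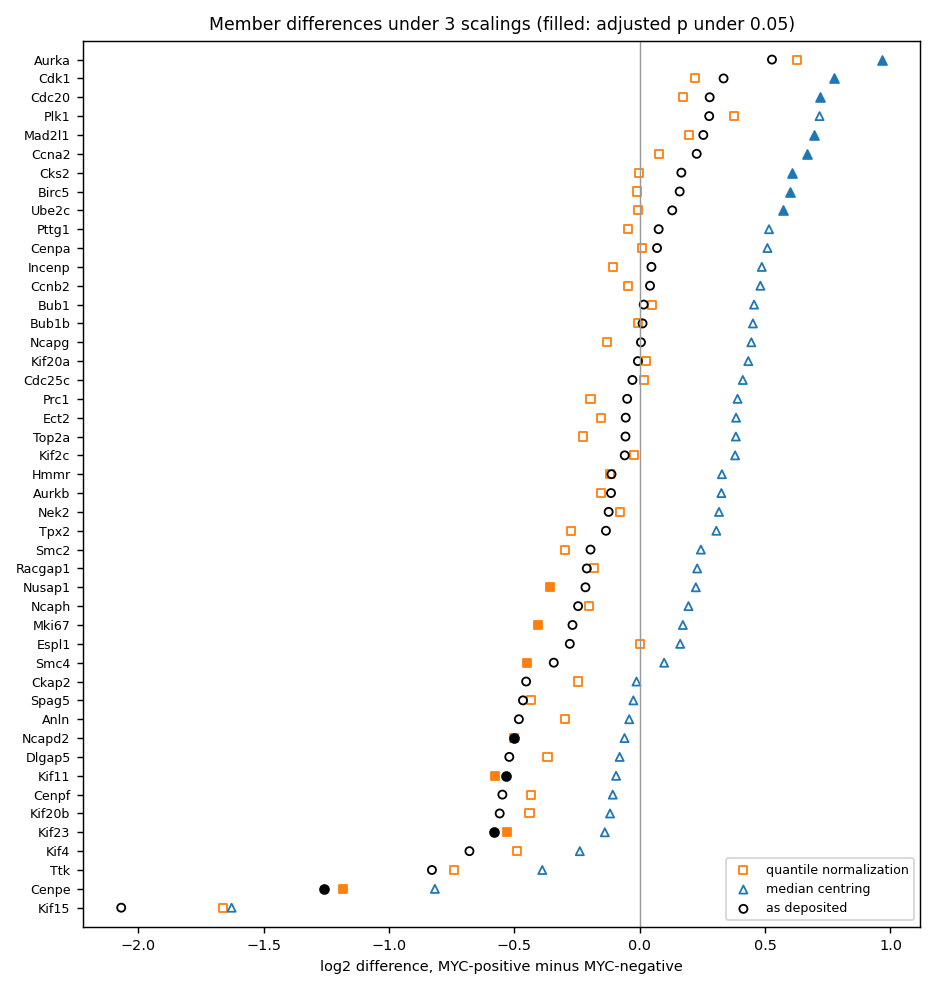
Log2 difference, MYC-positive minus MYC-negative, of each of the 46 members with the signals as deposited (circles), after quantile normalization (squares) and after median centring (triangles), filled where the adjusted p was under 0.05. All filled points lie below 0 as deposited (4) and after quantile normalization (7), with unfilled points among them, and all 8 filled points lie above 0 after median centring.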

How the data were processed

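Sorted GC B cells were profiled on 8 Affymetrix mouse genome arrays, 4 per fraction. The authors deposited linear signal intensities made with MAS5, per the submitters' processing notes, and every array has the same trimmed mean, which is from the values. Values below 1 were set to 1 and log2 taken, with 45056 probe sets of which 34945 have 1 gene symbol, 932 several and 9160 none, and 19 are controls. Probe sets with a mean log2 signal above the 40th percentile (signal 18.7) were kept, 27022 in all, and the one with the highest mean represented each gene (11754 genes). Differences were fitted with limma 3.58.1 in R 4.3.3 (eBayes with an intensity trend, 3 residual degrees of freedom), with the pair as a block and Benjamini-Hochberg adjustment over all genes, 2-sided; motif searches used Python 3.11.15. The fit was also run on simulated arrays with known changes and independent noise. These held no scaling difference between the fractions, so they cannot test how the calls depend on scaling. Pairs come from the sample descriptions. Deviations of partners from their group means correlated at 0.26, 0.17, 0.088 and 0.12 over all genes in pairs 1 to 4. Over the members the correlations were 0.72, 0.45, -0.091 and 0.20.

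The members, function groups and other lists were chosen with earlier results of these data known. All members are named; values on each array are given for members called, for 6 well-known members and for the largest difference of each sign in each group, and of the other genes for at most 6 called in each direction, with counts of 5 or fewer named. Alternatives were quantile normalization, median centring of all probe sets, no filter, a floor of 16, the mean over probe sets, no block, no trend and leaving out each pair. Gene names are those of the array annotation.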

Additional observations from a re-analysis of the deposited data

Results flagged for a closer look

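Within each fraction, the highest or lowest of the 4 signals of a member was compared with the others by Dixon's gap-over-range criterion at the 95% level. Of 92 groups of 4 arrays, 8 held such a signal, where chance gives about 1 in 20 groups. Ccna2 was highest at 8123 on the MYC-negative array of pair 4, against 5729 to 5914. Mad2l1 was lowest at 3317 on the MYC-positive array of pair 2, against 4033 to 4196. Cenpa was highest at 2983 on the MYC-negative array of pair 1, against 2845 to 2857. Cenpe was lowest at 241 on the MYC-positive array of pair 4, against 1114 to 1388. Kif20a was lowest at 1183 on the MYC-positive array of pair 3, against 1646 to 1696. Nusap1 was highest at 12098 on the MYC-negative array of pair 4, against 6893 to 7512. Hmmr was highest at 2932 on the MYC-negative array of pair 3, against 2480.2 to 2524. Smc4 was highest at 7382 on the MYC-negative array of pair 4, against 5144 to 5366. The MYC-negative array of pair 4 held 3 of the 8 (Ccna2, Nusap1 and Smc4), each the highest of its group. The cause was not tested.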

How the results depend on the processing

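Counts of members, of 46, were 0 higher and 7 lower after quantile normalization and 8 and 0 after median centring. They were 0 and 2 with no filter (against 6.49% and 6.33% of all genes), 0 and 0 with no block and 0 and 0 with no intensity trend. Leaving out 1 pair gave 0 to 1 higher and 0 to 7 lower. The shares of all genes in the other settings stand beside the next counts. Of 114 other G2/M genes, 5 were called higher and 8 lower (against 11.2% and 11.5% of all genes). These counts became 8 and 15 after quantile normalization (against 15.2% and 11.3%) and 38 and 1 after median centring (against 27.3% and 4.65%). They were 2 and 15 with the mean over probe sets (against 9.93% and 13.5%). With no block they were 6 and 5 (against 8.98% and 7.67%), and with no trend 2 and 4 (against 6.26% and 6.56%). They ranged over 0 to 10 and 1 to 13 leaving out 1 pair (against 3.43% to 14.8% and 2.99% to 17.3%). DNA replication genes called higher, of 38, ranged over 0 to 12 leaving out 1 pair (against 3.43% to 14.8% of all genes). They were 33 after median centring (against 27.3%), 5 with no filter (6.49%), 5 with no block (8.98%) and 3 with no trend (6.26%). All genes called numbered 1319 higher and 1352 lower, 403 and 352 without pair 1, and 455 and 425 without pair 2. They numbered 736 and 771 with no trend, and 3204 (27.3%) and 546 (4.65%) after median centring. The members' median was 0.33 after median centring, -0.27 with the mean over probe sets and -0.15 to -0.099 leaving out 1 pair. Signs turned after quantile normalization for Ccnb2 -0.049, Cks2 -0.0033, Cdc25c 0.019, Incenp -0.11, Birc5 -0.010, Bub1b -0.0063, Ube2c -0.0060, Pttg1 -0.048, Espl1 0.00094, Kif20a 0.025, Ncapg -0.13. They turned after median centring for Cdc25c 0.41, Nek2 0.32, Aurkb 0.33, Espl1 0.16, Kif20a 0.43, Kif2c 0.38, Tpx2 0.31, Prc1 0.39, Nusap1 0.22, Hmmr 0.33, Ect2 0.38, Racgap1 0.23, Ncaph 0.19, Smc2 0.24, Smc4 0.10, Top2a 0.38, Mki67 0.17, and with the mean over probe sets for Cdc25c 0.075, Incenp -0.39, Bub1 -0.17, Bub1b -0.066, Cenpa -0.79, Pttg1 -0.18, Ncapg -0.14. Leaving out 1 pair, differences ran as Ccnb2 -0.019 to 0.091, Cdc25c -0.15 to 0.054, Plk1 -0.018 to 0.46, Nek2 -0.18 to 0.00052, Incenp -0.17 to 0.21, Bub1 -0.11 to 0.25, Bub1b -0.080 to 0.084, Cenpa -0.18 to 0.31, Ube2c -0.043 to 0.20, Pttg1 -0.055 to 0.18, Kif20a -0.14 to 0.051, Kif2c -0.25 to 0.035, Tpx2 -0.22 to 0.0023, Prc1 -0.21 to 0.020, Hmmr -0.29 to 0.10, Ect2 -0.15 to 0.083, Ncapg -0.16 to 0.20, Smc2 -0.32 to 0.0042, each with a turn of sign. Member differences not listed kept their sign under these alternatives. The cause of these changes was not tested, except that leaving out a pair leaves fewer arrays. No paired analysis by replicate number was possible because the titles number the fractions differently, so pairs were taken from the descriptions. Dim probe sets such as Kif15, with a signal under the filter level on 1 array, limit the lower end.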
